A study of Mus musculus with 9 samples.

Results

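The genes described here are Adm, which encodes the peptide hormone adrenomedullin, and the genes of the subunits that make up its receptors, Calcrl, Ramp1, Ramp2 and Ramp3. These 5 of the 19698 genes tested were chosen by symbol, each taken from the array row that carries that symbol alone and has the highest mean level. Each of the 5 had 1 such row, so no measured value decided between rows, but the set was put together with the response of Adm on these arrays already known. All differences of Adm are therefore given as a description, without a p-value. Transcript levels were measured in 3T3 fibroblasts, an immortalised mouse embryonic fibroblast line, on Affymetrix whole-transcript mouse arrays (Gene 1.0 ST). The 9 arrays form 3 groups of 3, namely TNF-α-stimulated BAF-knockdown cells (BAFkd_st), TNF-α-stimulated control cells (control_st) and non-stimulated control cells (control_ns). Stimulation was for 1 h with 5 ng per ml of mouse TNF-α, a cytokine of inflammation whose early target genes are switched on mostly by NF-kB. BAF-knockdown cells stably express, from a retroviral vector and after sorting for high GFP, a single short hairpin RNA against a sequence shared by Brg1 and Brm, the alternative catalytic subunits of the BAF chromatin remodeller. The sources do not say which vector, if any, the control cells carried. Knockdown cells without TNF-α were not analysed here, and a difference between the stimulated groups cannot be divided into a basal difference and a difference in response.

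Adrenomedullin is made as a precursor protein that is cleaved and amidated, and it is best known as a vasodilator and as a factor of blood and lymphatic vessel development. Its receptor is the G protein-coupled receptor CALCRL in a complex with a receptor activity-modifying protein, one of the single-pass membrane proteins encoded by Ramp1, Ramp2 and Ramp3. CALCRL with RAMP2 or RAMP3 binds adrenomedullin, while CALCRL with RAMP1 prefers calcitonin gene-related peptide, and the receptors act mainly through the stimulatory G protein and cyclic AMP. Adm is widely known as a gene induced by hypoxia and by inflammatory cytokines. Endothelial cells are a main site of Calcrl and Ramp2 expression.

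Levels are RMA log2 values, on which a difference of 1 is a doubling of signal, and are given as mean ± SD (n = 3 arrays), while differences carry the standard error (SE) of the limma fit. The signal of a gene depends on its probes, so the levels of the genes described were not set against each other. Smarca4, the gene of Brg1, was at 10.46 ± 0.19 in BAF-knockdown cells, against 11.57 ± 0.04 in stimulated control cells (difference -1.11 ± 0.09, limma adjusted p = 0.00362). Smarca2, the gene of Brm, was at 9.21 ± 0.15 and 9.57 ± 0.22 in the same groups (-0.36 ± 0.20, adjusted p = 0.734, or 0.129 with the replicate number as a block). By quantitative RT-PCR, a different measure, the paper reports a reduction of both transcripts that is larger than these array differences. On the first principal component, with 39.0% of the variance, knockdown array 2 lay at 4.0 and the other knockdown arrays at 17.8 and 22.6, against -19.8 to 1.94 for the control arrays. As a coarse description of the cell type, open to the same limit of the probes, 11 of 12 fibroblast, 6 of 10 smooth muscle and pericyte, 2 of 15 endothelial and 2 of 11 leukocyte markers had a mean above the median of all genes. The summed signal of the fibroblast markers was 69996 to 72130 in BAF-knockdown arrays, 75463 to 85828 in stimulated control arrays and 79818 to 87985 in non-stimulated ones. No fibroblast marker was called in the knockdown (0.137% of all genes were), while 4 of 12 were called lower with the replicate number as a block (Col3a1, Col6a1, Pdgfra and S100a4), as were 459 of 19698 genes, and the part of this shift in the results below was not tested.

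The promoter of Adm is shown because Adm was the one gene of the 5 whose groups of arrays did not overlap. RefSeq (GRCm38.p6) places the 250 bases before its start at chr7:110627407-110627656 on the plus strand, printed 5′ to 3′ with the TATA box core TATAA, read on both strands, in capitals.
Adm: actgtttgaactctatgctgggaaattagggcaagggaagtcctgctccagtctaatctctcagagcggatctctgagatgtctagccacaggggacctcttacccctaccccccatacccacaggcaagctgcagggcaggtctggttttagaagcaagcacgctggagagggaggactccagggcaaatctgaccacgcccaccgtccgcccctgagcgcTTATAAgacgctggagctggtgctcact
The capitals hold overlapping matches on the minus strand, from -28 to -24, and on the plus strand, from -27 to -23, counted from the start. TATAA was found on either strand in 22.8% of 32841 promoter windows of this length. The windows of Calcrl, Ramp1 and Ramp3 held no such match, and the last 40 bases of each are given beside the same stretch of Adm (Ramp2 had no entry). The windows of Adm and Ramp1 end just before the reference gene span. That of Calcrl uses a start within its span (chr2:84330626-84425405), so the printed stretch lies inside the gene. The Ramp3 stretch lies partly inside its gene, whose span begins at chr11:6658506. The stretches are therefore not placed alike.
Calcrl, chr2:84425267-84425306, minus strand: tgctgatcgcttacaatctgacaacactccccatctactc
Ramp1, chr1:91179782-91179821, plus strand: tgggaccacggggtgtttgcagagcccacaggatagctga
Ramp3, chr11:6658493-6658532, plus strand: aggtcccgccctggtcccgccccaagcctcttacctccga
None of the 4 windows held the hypoxia response element core ACGTG (in 16.6% of all windows), the cAMP response element core TGACG (17.8%), the AP-1 site TGANTCA (6.75%) or the kB-like site GGGNNTTCC (4.98%), each searched on both strands. Sites outside these windows, and other forms of these motifs such as longer kB sites, were not searched. The Adm window had a GC content of 56.8% and an observed over expected ratio of CG dinucleotides of 0.35, against medians of 52.4% and 0.37 over all windows. The corresponding values were 48.4% and 0.21 for Calcrl, 54.0% and 0.22 for Ramp1, and 65.2% and 0.52 for Ramp3, all below the ratio of 0.72 that marks the upper quartile of all windows.

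Adm (transcript cluster 10556297) was higher in stimulated than in non-stimulated control cells, and higher again in stimulated BAF-knockdown cells. Its level was 12.32, 12.27 and 12.29 on BAF-knockdown arrays 1, 2 and 3, 11.67, 11.64 and 11.01 on the stimulated control arrays, and 9.994, 9.503 and 9.622 on the non-stimulated control arrays. The 3 groups did not overlap, and the knockdown arrays lay within 0.055 of each other, while the stimulated control arrays spanned 0.66 and the non-stimulated ones 0.49. Among the stimulated control arrays, array 3 was the low one.

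The difference between stimulated and non-stimulated control cells was 1.73 ± 0.18, or 3.32-fold, with group levels of 11.44 ± 0.37 and 9.71 ± 0.26. Within the replicate numbers it was 1.68, 2.13 and 1.39. By size it was rank 14 of 19698 genes. The 3 stimulated arrays lay above the 3 non-stimulated ones, as they did for 3.19% of all genes. The limma fit called 27 genes in this comparison (0.137% of those tested), all higher, and Adm was one of them, though not when non-stimulated array 3 or stimulated control array 1 or 2 was left out. With the block it was also among the 78 genes called (0.396%). Since Adm was chosen with this known, nothing is read from these calls.

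The difference between BAF-knockdown and control cells, both stimulated, was 0.85 ± 0.18, or 1.81-fold, with levels of 12.29 ± 0.03 and 11.44 ± 0.37. Within the replicate numbers it was 0.65, 0.63 and 1.28, positive in 3 of 3, and the larger value was that of number 3, which holds the low stimulated control array. Without that array the difference was 0.64, and without knockdown array 2 it was 0.87. The arrays of the 2 groups did not overlap, a separation upward that 4.63% of all genes showed. Adm was not among the 27 genes called here (0.137%, 7 higher and 20 lower), whereas with the block it was among the 652 called (3.31%, 193 higher and 459 lower). In this comparison it was rank 32 by size.

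Between stimulated BAF-knockdown and non-stimulated control cells, where knockdown and stimulation cannot be told apart, Adm differed by 2.59 ± 0.18, or 6.01-fold. Only 3 genes had a larger positive difference. Within the replicate numbers the difference was 2.33, 2.76 and 2.67. This comparison shares its arrays with the other 2, called 220 genes (1.12%), and had Adm among them in each of the 9 fits that left out 1 array.

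**Figure D1:**
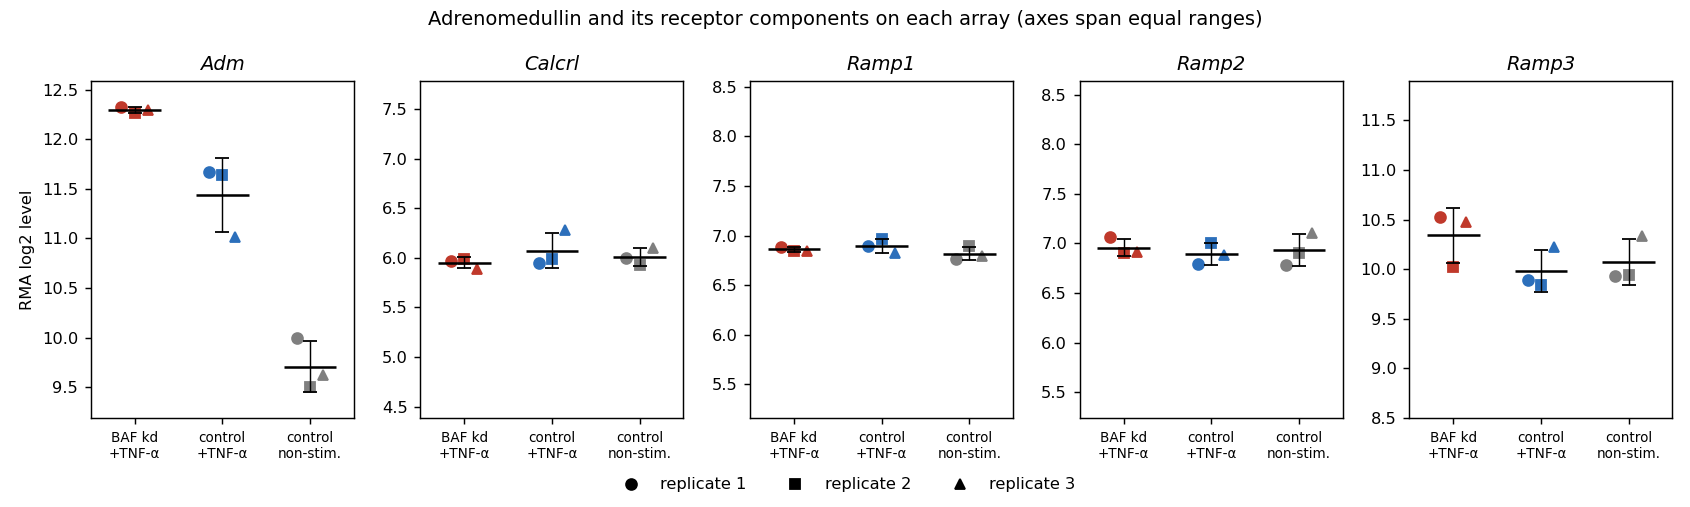
RMA log2 level (y axis, equal spans that do not start at 0) of the 5 genes in BAF-knockdown +TNF-α, control +TNF-α and non-stimulated control cells, drawn as a point for each array (shapes are replicate numbers) beside the group mean ± SD (n = 3). Adm stands at 12.29, 11.44 and 9.71 in these groups without overlap, while the groups of the other genes overlap.

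Of the 4 receptor genes, 0 were called after TNF-α and 0 in the knockdown, with or without the block, where 0.137% of all genes were called in each comparison without it. At an unadjusted p under 0.05 there were also 0 in each by limma without the block, against 605 and 1661 of all 19698 genes, and 0 by the methods' t-test. In the limma fit with the block there were 0 after TNF-α and 1 in the knockdown, Ramp3 (unadjusted p = 0.00788). The groups overlapped for each of the 4 genes in both comparisons, where 3.19% and 4.63% of all genes were separated upward. With 4 genes, counts of 0 are near these shares and, like the count of 1, are not a result about the receptor genes.

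Calcrl (transcript cluster 10484371), the gene of the receptor itself, was at 5.97, 5.99 and 5.89 on the BAF-knockdown arrays, at 5.95, 5.99 and 6.28 on the stimulated control arrays, and at 5.995, 5.929 and 6.103 on the non-stimulated control arrays. These groups overlapped, and array 3 was highest in both control groups and lowest in the knockdown. Knockdown array 2 and stimulated control array 2 held exactly the same value, as 2 or more of the arrays did for 49.8% of all genes. The difference was 0.06 ± 0.09 after TNF-α (adjusted p = 1, 95% interval -0.14 to 0.27) and -0.12 ± 0.09 in the knockdown (adjusted p = 0.836, -0.33 to 0.08). Whether the signal exceeded background was not tested, so a change may not have been detectable.

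Ramp1 (transcript cluster 10348537), the partner that directs CALCRL towards calcitonin gene-related peptide, was at 6.89, 6.85 and 6.85 on the BAF-knockdown arrays, at 6.89, 6.96 and 6.82 on the stimulated control arrays, and at 6.76, 6.89 and 6.80 on the non-stimulated ones. The groups overlapped, and the whole span over the 9 arrays was narrower than the spread of Adm within its stimulated control group. The difference was 0.07 ± 0.05 after TNF-α (adjusted p = 1, 95% interval -0.05 to 0.20) and -0.03 ± 0.05 in the knockdown (adjusted p = 0.947, -0.16 to 0.09). These intervals, like those of the other receptor genes, lie below the differences measured for Adm, which was chosen with its differences known. Whether the signal of Ramp1 exceeded background was not tested either, so a change may not have been detectable.

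Ramp2 (transcript cluster 10381298), a partner for adrenomedullin binding, was at 7.06, 6.90 and 6.92 on the BAF-knockdown arrays, at 6.79, 7.01 and 6.89 on the stimulated control arrays, and at 6.79, 6.90 and 7.10 on the non-stimulated ones. All 3 groups covered much the same range, and whether the signal exceeded background was not tested. The difference was -0.04 ± 0.09 after TNF-α (adjusted p = 1, 95% interval -0.24 to 0.17) and 0.06 ± 0.09 in the knockdown (adjusted p = 0.933, -0.14 to 0.27).

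Ramp3 (transcript cluster 10374197), the other partner for adrenomedullin binding, was at 10.53, 10.02 and 10.47 on the BAF-knockdown arrays, at 9.89, 9.84 and 10.22 on the stimulated control arrays, and at 9.93, 9.94 and 10.34 on the non-stimulated ones. Array 3 was the highest in both control groups, and knockdown array 2 fell within the range of the control arrays. The difference after TNF-α was -0.09 ± 0.17 (adjusted p = 1, 95% interval -0.47 to 0.30). In the knockdown it was 0.36 ± 0.17, or 1.28-fold (limma adjusted p = 0.637, 95% interval -0.03 to 0.74). The block narrowed the SE to 0.10, with an unadjusted limma p of 0.00788 and an adjusted p of 0.132, which is not a call. Within the replicate numbers Ramp3 was higher in the knockdown by 0.64, 0.18 and 0.25. Without knockdown array 2 the difference was 0.52 (adjusted p = 0.213), and without knockdown array 1 it was 0.26 (adjusted p = 0.910).

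**Figure D2:**
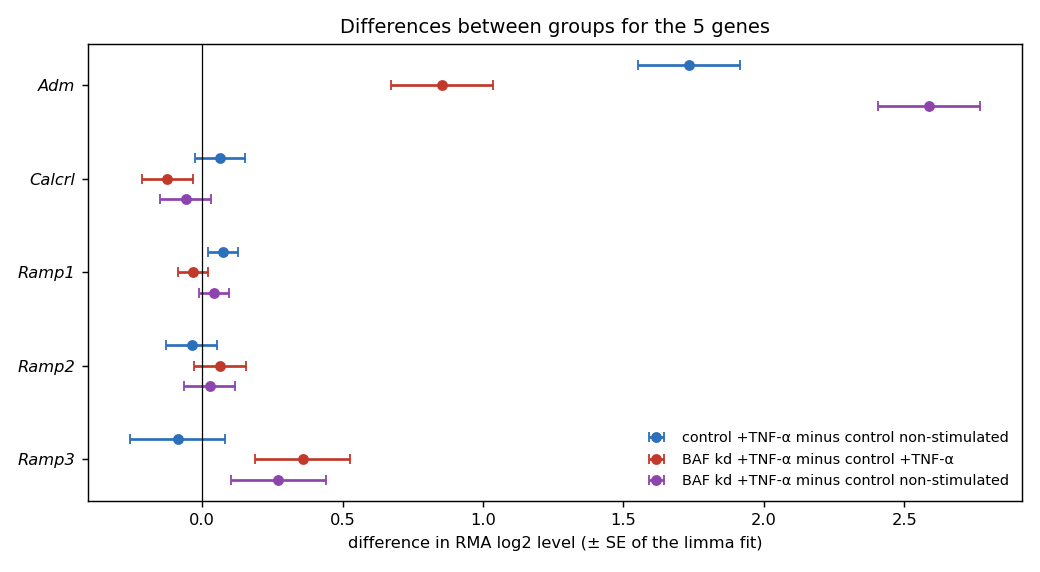
Difference in RMA log2 level (x axis) of the 5 genes (y axis) in the 3 comparisons, as limma estimates with bars of 1 SE (n = 3 arrays per group, 9 in the fit). Adm lies at 1.73, 0.85 and 2.59, and the receptor genes between -0.12 and 0.36.

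The other genes of the system were examined through lists by function. Of the 3 other measured peptide genes of the calcitonin family, none was called in either comparison (0.137% of all genes in each). Adm2, which encodes the related peptide intermedin, differed by -0.07 after TNF-α and by 0.03 in the knockdown, Calcb by 0.03 and 0.05, and Iapp, the gene of amylin, by 0.15 and -0.12. In stimulated control cells Adm2 was at 7.54, Calcb at 6.97 and Iapp at 5.86, where the median of all genes was 7.97 to 8.03 over the arrays. Whether these signals exceeded background was not tested, so a change may not have been detectable. The list of 8 receptors and partners, which holds the 4 receptor genes above, had 0 members called in either comparison (0.137% of all genes were called in each) and medians of 0.03 after TNF-α and -0.01 in the knockdown, against -0.0020 and 0.0088 over all genes. Outside the 4, the largest differences were those of Ackr3, an atypical receptor that also takes up adrenomedullin, at -0.25 after TNF-α and 0.24 in the knockdown (adjusted p = 1 and 0.709). Crcp, a component that supports coupling of the receptor for calcitonin gene-related peptide, differed by 0.11 and -0.12, and Gpr182, another atypical receptor, by 0.09 and -0.02.

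Among 11 genes of peptide processing and clearance, 0 were called in either comparison, against 0.137% of all genes in each (medians -0.02 after TNF-α and 0.02 in the knockdown). Pam, whose product amidates adrenomedullin, was at 10.39 ± 0.15 in the knockdown, 10.34 ± 0.10 in stimulated and 10.44 ± 0.14 in non-stimulated control cells, with differences of 0.05 ± 0.10 in the knockdown and -0.10 ± 0.10 after TNF-α. With the block, which called 3.31% of all genes in the knockdown, Pcsk6, a proprotein convertase, was called higher in the knockdown (0.33 ± 0.06, adjusted p = 0.0913, blocked 0.0429), and Cpd, a carboxypeptidase, lower (-0.31 ± 0.10, adjusted p = 0.367, blocked 0.0263).

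Of 30 genes of the stimulatory G protein, cyclic AMP and receptor desensitisation, 0 were called after TNF-α and 0 in the knockdown, against 0.137% of all genes in each, with medians of -0.01 and -0.01. With the block, which called 459 of all 19698 genes lower, the genes of 2 phosphodiesterases that break down cyclic AMP were called lower in the knockdown, Pde4d (-0.48 ± 0.07, adjusted p = 0.0565, blocked 0.00864) and Pde4b (-0.38 ± 0.14, adjusted p = 0.453, blocked 0.0400). Pde4b was at 8.80 in the knockdown, 9.18 in stimulated and 8.78 in non-stimulated control cells, so its difference after TNF-α was 0.40 ± 0.14 (adjusted p = 1, blocked 0.120). Rapgef3, a cyclic AMP-regulated exchange factor, differed by 0.35 ± 0.14 in the knockdown (adjusted p = 0.498).

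**Figure D3:**
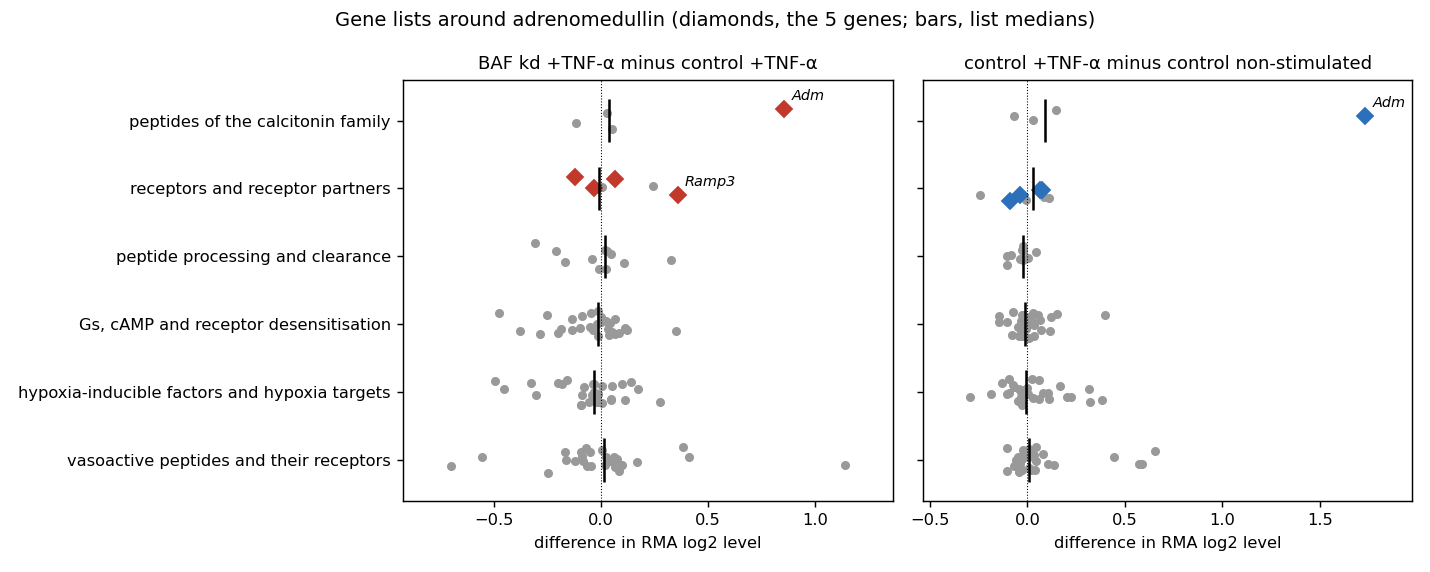
Differences in RMA log2 level (x axis) of the genes of 6 lists (y axis), in the knockdown (left) and after TNF-α (right), with 1 point per gene, diamonds for the 5 genes described here and bars at list medians. Adm, chosen with its values known, lies at 0.85 and 1.73, and the medians lie between -0.03 and 0.09.

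Adm is a textbook hypoxia target. Of 31 measured genes that encode hypoxia-inducible factors, their regulators and their targets, 0 were called in either comparison, against 0.137% of all genes in each, with medians of -0.01 after TNF-α and -0.03 in the knockdown. Vegfa, the vascular endothelial growth factor, was at 11.53 in the knockdown, 11.85 in stimulated and 11.54 in non-stimulated control cells. Its differences were -0.33 ± 0.08 in the knockdown (adjusted p = 0.220, blocked 0.0172) and 0.32 ± 0.08 after TNF-α (adjusted p = 0.774, blocked 0.0709). The other large differences in the knockdown were those of Ndrg1 (-0.49) and the collagen prolyl hydroxylase subunit P4ha2 (-0.45), and after TNF-α those of the hexokinase Hk2 (0.38) and the transcriptional repressor Bhlhe40 (0.32), none of them called. In the knockdown 10 of the 31 genes had a difference above 0, the largest that of Ero1a (0.27 ± 0.11, adjusted p = 0.556, blocked 0.0753). Whether hypoxia signalling had a part in the levels of Adm was not tested.

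Of 28 other vasoactive peptides, receptors and enzymes, 0 were called in either comparison, against 0.137% of all genes in each. After TNF-α the largest differences were those of the nitric oxide synthase Nos2 (0.66 ± 0.28), the vasoconstrictor endothelin-1, Edn1 (0.59 ± 0.14, adjusted p = 0.517), and the natriuretic peptide Nppb (0.57 ± 0.52). In the knockdown Nppb differed by 1.14 ± 0.52 (adjusted p = 0.608) and the peptide Apln by -0.70 ± 0.33 (adjusted p = 0.629). With the block, which called 3.31% of all genes, Ptgis, the prostacyclin synthase, was called lower in the knockdown (-0.55 ± 0.22, adjusted p = 0.518, blocked 0.00592).

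The differences of Adm were set beside those of 30 early targets of TNF-α and NF-kB, a list assembled with the earlier results on these arrays known. Of the 30, 19 rose after TNF-α, 0 fell and 11 were not called (25 rose with the block), against 0.137% of all genes called and 0.396% with the block, with a median of 1.39, and 11 had a larger difference than Adm. In the knockdown 0 of the 30 were called, against 0.137% of all genes, with a median of 0.05. With the block (3.31% of all genes) Cxcl10, a chemokine, was called higher (1.34, blocked adjusted p = 0.0117), and the cytokines Il1a (-1.69, 0.0309) and Il6 (-0.96, 0.0178), the chemokine Cxcl2 (-0.81, 0.0364) and the cholesterol hydroxylase Ch25h (-1.16, 0.00386) lower. Cxcl10 was the one gene of the list with a larger knockdown difference than Adm. Among the 27 genes called higher after TNF-α, Adm included, 14 had a knockdown difference above 0 and 13 below 0, with a median of 0.03. That of Adm was the largest of the 27, followed by those of the transcription factor Irf1 (0.33, adjusted p = 0.153) and of Gadd45b (0.30, adjusted p = 0.0454). These counts and ranks are a description, since Adm was chosen with its values known. The stimulated control arrays also enter both comparisons with opposite signs, so genes picked as higher after TNF-α tend towards lower knockdown differences.

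**Figure D4:**
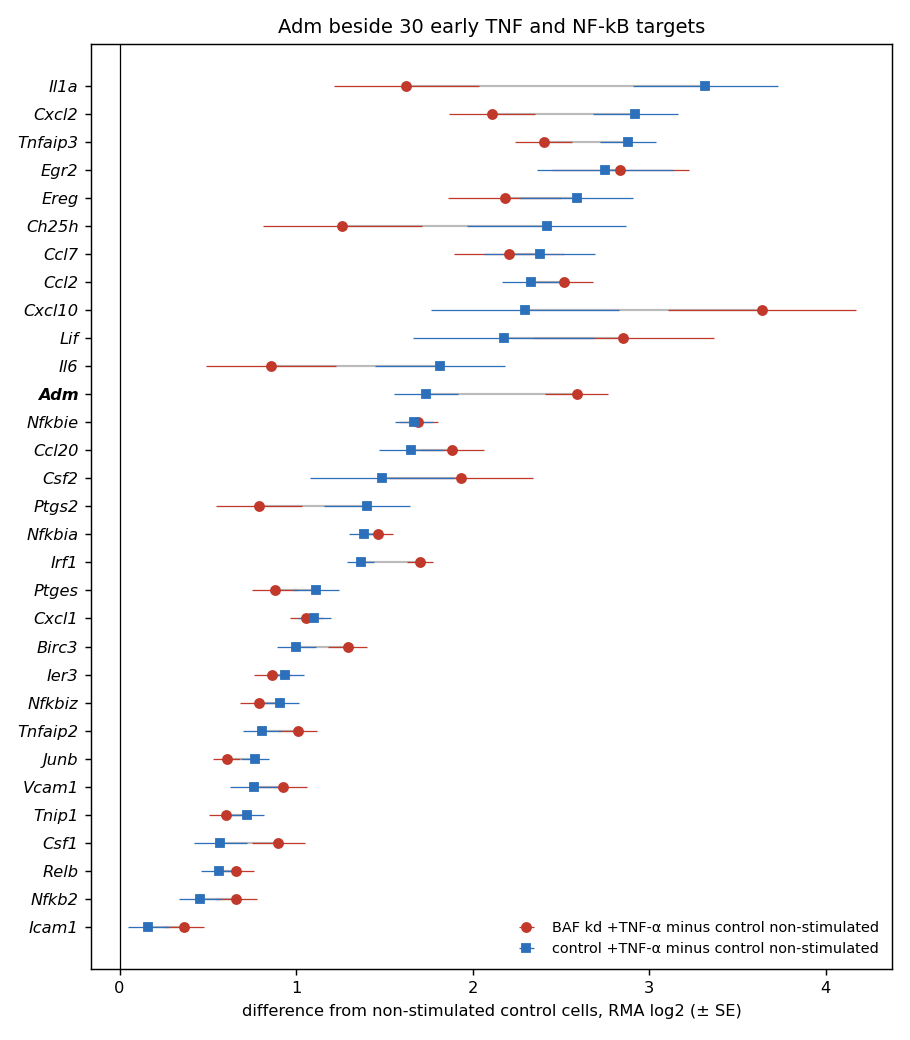
Difference from non-stimulated control cells in RMA log2 level (x axis) for Adm and 30 early TNF-α and NF-kB targets (y axis), in BAF-knockdown +TNF-α cells (circles) and control +TNF-α cells (squares), with bars of 1 SE (n = 3 arrays per group). Adm lies at 2.59 in the knockdown and 1.73 in control cells, while Il1a lies at 1.62 and 3.32.

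Across the 9 arrays, the genes whose level was most like that of Adm by Pearson correlation were Gadd45b (r = 0.9753), Irf1 (0.968), 4921524J17Rik (0.960), Birc3, an inhibitor of apoptosis (0.959), Sik1, a salt-inducible kinase (0.951), and the NF-kB inhibitor Nfkbia (0.951). The 9 points share 3 groups, and a gene that differs between non-stimulated and stimulated cells will correlate with Adm for that reason alone. Once group means were subtracted, the correlations with Adm ran from -0.17 for Gadd45b to 0.64 for 4921524J17Rik. Of the 6 genes, 5 were called higher after TNF-α, Sik1 being the exception. Their differences in the knockdown were 0.05 to 0.33, below the 0.85 of Adm.

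**Figure D5:**
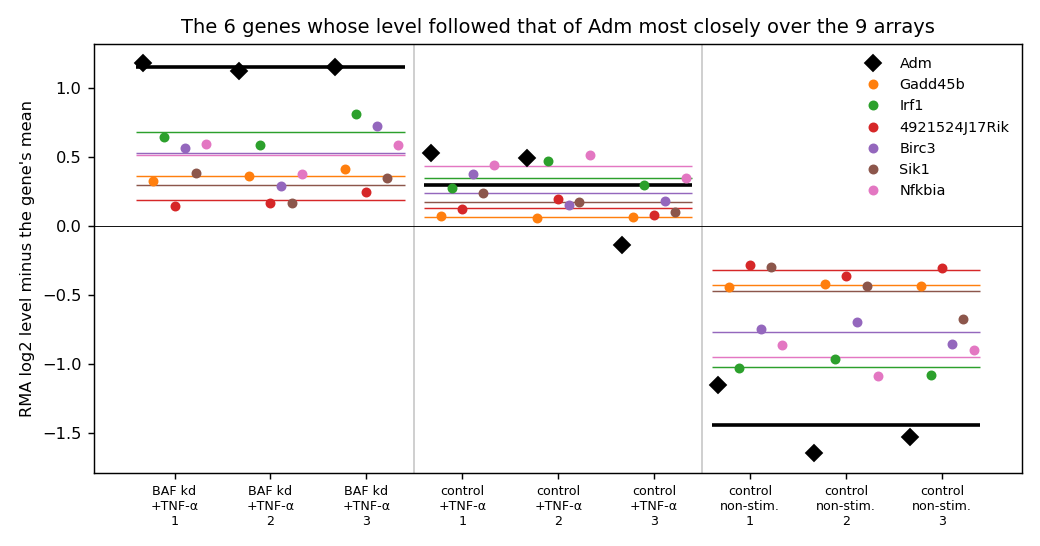
RMA log2 level minus the mean of the gene (y axis) on each array (x axis, by group and replicate number) for Adm and the 6 genes most correlated with it, with horizontal lines at group means (n = 3). All 7 genes lie above their mean on knockdown arrays and below it on non-stimulated control arrays, and Adm spans the widest range.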

How the data were processed

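Total RNA from 9 cultures was hybridised to 1-colour arrays, 3 per group, with replicates made on different days. The deposited values are log2 signals to which the authors had applied RMA (background correction, quantile normalisation, median polish), using the affy package according to the paper. These values ran from 3.36 to 14.61. The genome build behind the array annotation was not stated in these sources. Array precision is limited by the number of arrays. Of 27024 transcript clusters, 21319 have 1 gene symbol, 1430 several and 4275 none in the platform annotation, and 21237 matched the reference gene table. One cluster per symbol (highest mean over the arrays) left 19698 genes.

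Group means were compared with limma 3.58.1 in R 4.3.3 (lmFit, eBayes, all 9 arrays, two-sided), with Benjamini-Hochberg adjustment over all genes and calls at an adjusted p under 0.05. The procedure was tested on simulated data. Arrays of the same number departed from their group means in the same way (correlations 0.21 to 0.724, against -0.566 to 0.0111 for other pairs), so the replicate number pairs the arrays and was added as a block in an alternative fit. The methods' t-test is Student's test at p under 0.05 with a difference over 0.35 (TNF-α) or 0.3 (knockdown, where the methods name the difference but no test).

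Members, lists and tests were chosen with earlier results of these data known. The genes named are the 5 members, list genes called in either fit (at most 6 per list and comparison), otherwise up to 3 per list by size, and the 6 genes most correlated with Adm. Adm2, Calcb, Iapp, Pam, Rapgef3, Ndrg1, P4ha2, Ero1a, Nppb and Apln fell outside this rule in 1 or both comparisons and were chosen after their values were seen. Of the 200 list entries, 10 were not analysed here. Alternatives were another quantile normalisation, median centring, a filter on dim genes, array weights, the mean of all rows of a gene, only the groups compared, and leaving out each array.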

Additional observations from a re-analysis of the deposited data

How the results depend on the processing

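The difference of Adm kept its sign in every alternative run (1.62 to 1.95 after TNF-α, 0.64 to 0.97 in the knockdown and 2.49 to 2.73 between stimulated knockdown and non-stimulated control cells when 1 array was left out, and 1.67 to 1.74, 0.82 to 0.87 and 2.49 to 2.61 under the other alternatives). The receptor genes called stayed at 0 in both comparisons under every alternative run. With the filter on dim genes, Calcrl, Ramp1 and Ramp2 were not tested. Signs of differences near 0 turned without 1 array: the range was -0.038 to 0.13 for Calcrl after TNF-α, -0.069 to 0.0038 for Ramp1 in the knockdown, -0.11 to 0.049 for Ramp2 and -0.21 to 0.048 for Ramp3 after TNF-α. The counts of genes called over the whole array were less stable. After TNF-α, 27 genes were called, against 78 with the replicate block, 41 with array weights, 15 with only the 2 groups compared, 115 by the methods' t-test (1 after Benjamini-Hochberg) and 9 (without stimulated control array 1) to 28 without 1 array. In the knockdown, 27 were called, against 652 with the replicate block, 41 when quantile normalised again, 52 without dim genes, 62 with array weights, 8 with only the 2 groups compared, 433 by the methods' t-test (0 after Benjamini-Hochberg, against 1661 genes at an unadjusted limma p under 0.05) and 6 (without stimulated control array 3) to 154 (without knockdown array 2) without 1 array. Between stimulated knockdown and non-stimulated control cells, 220 were called, against 1052 with the replicate block, 25 with only the 2 groups compared and 26 (without non-stimulated array 1) to 464 (without knockdown array 2) without 1 array. The cause of these shifts was not tested. The block changed no call of a receptor gene. Single arrays give no depth, and no detection calls were used.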
